A study of Mus musculus with 22 samples.

Results

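Among the transcripts whose 3′ ends were scored for alternative polyadenylation in sorted mouse colon crypt cells, those with a terminal region of at least 2500 bases are described here. The span is the end minus the start of the region listed for the transcript, and transcripts were joined by their identifier across the 5 tables that compare stem cells with another cell type. Among the listed transcripts the rule used length alone. A transcript was listed only where its end had enough coverage to be scored, so membership depends on coverage as well. The rule took 1159 of 5559 transcripts, from 1108 genes, 47 of which had more than 1 such transcript. The spans ran from 2501 to 20768 bases, with a median of 3466. The table for absorptive progenitors listed 1033 of them among 5137 transcripts, that for SecPDG 891 of 4356, that for tuft cells 698 of 3318, that for enterocytes 518 of 2538 and that for enteroendocrine cells 267 of 1343. In all 5 tables there were 156, and 198 stood in a single table.

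Most mammalian genes can end their mRNA at more than 1 place. A protein complex recognizes a hexamer, most often AATAAA, cuts the RNA a short way downstream and adds the poly(A) tail, and a weaker signal further upstream can be used in its stead. The choice between a proximal and a distal site sets how much of the 3′ untranslated region (UTR), where microRNAs and RNA-binding proteins bind, the mRNA keeps. In many tissues proliferating cells are known to favor proximal sites and differentiated cells distal ones, so a long terminal region offers the most sequence to gain or lose.

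The cells were sorted from the colons of untreated wild-type male C57BL/6N mice aged 5 to 7 weeks, and every group was negative for Cd31 and Cd45, positive for Epcam and alive. Stem cells (Stem, 3 libraries) had the highest Cd44, low Cd24 and no Ckit. Absorptive progenitors (AbsPro, 3 libraries) had medium to high Cd44, low Cd24 and no Ckit. SecPDG, the mix of secretory progenitors, deep crypt secretory cells and goblet cells (4 libraries), had high Cd44 and medium Cd24 and Ckit. Tuft cells (5 libraries) had Ckit and high Cd24, enterocytes (5 libraries) low or no Cd44 and no Cd24, and enteroendocrine cells (EECs, 2 libraries) low or no Cd44 with Cd24. Sorts were pooled where needed to reach 2500 cells, RNA was pooled for library preparation from 1 ng, and replicates came from independent mice and sorts.

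The 22 libraries held 4122122 to 22462518 reads counted on genes. Of the reads counted on a gene, on no feature or as ambiguous, 40.9 to 89.7% fell on no feature. Whether those reads lay inside or outside genes is not recorded. Both measures varied with cell type. No Stem, AbsPro or SecPDG library had more than 49.4% on no feature, and no enterocyte or EEC library less than 64.5%. Tuft libraries lay between 43.4 and 68%. Each Stem library held at least 19900282 reads on genes, and no enterocyte or EEC library more than 13132315. How far this shaped the comparisons with Stem was not tested. Summed normalized counts of 4 markers fixed for each cell type were highest in the cells of that name, except that the absorptive markers stood at 4040 and 88000 in the 2 EEC libraries against 35600 to 55400 in enterocytes. SecPDG markers summed to 591000 to 1170000 in tuft cells against 600000 to 1600000 in SecPDG. Immune markers summed to 1030 to 3080 in tuft cells and to at most 714 elsewhere, mostly through Ptprc (mean of 1670 in tuft cells), while the mean of Cd3e was 23.7 for tuft cells, 59.4 for enterocytes and 141 for EECs and that of Lyz2 was 15.8, 37.2 and 4.25. Tuft markers summed to 2840 to 6690 in EECs and to at most 689 in the other cells that are not tuft cells. Stromal markers reached 1200 in an EEC library and 1000 in an AbsPro library. The EEC markers summed to up to 27000 in a tuft library, and endothelial markers to 1300 to 1860 in EECs and to at most 1160 elsewhere. The part of these markers in the results was not tested. In bulk RNA, fewer cells of a type and less RNA per cell cannot be told apart.

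Each region was compared with the terminal exons of the GENCODE annotation of the same genome build (GRCm38, mm10). For 934 of the 1159 transcripts (80.6%) a terminal exon on the same strand shared the region's start and reached to within 10 bases of its end or beyond. The match was by position, and gene names were not compared. The name long 3′ UTR held for most of these, but not for all. Part of the region was coding in 879 of the 934, 723 (77.4%) kept at least 2500 non-coding bases, and in 62 (6.64%) more than 50% of the bases were coding. Eppk1, which encodes the cytolinker epiplakin, had 10374 coding and 864 non-coding bases. The chaperone gene Hspa1a had 1923 and 875, and reads of Hspa1a cannot be told apart with certainty from those of its near-identical copy Hspa1b. The 1159 are therefore called long terminal regions.

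The listed ends carried the cleavage signal. AATAAA or ATTAAA, searched on the transcript's strand, lay in the last 50 bases of 814 of the 934 matched long regions (87.2%). The same hexamers were found in 5.08% of 62801 windows of 50 bases elsewhere in their non-coding parts. They ended 76.1% of regions from 1000 to under 2500 bases and 76.4% of shorter ones. AATAAA alone ended 71.3% of the long regions and 60.9% and 62.1% of the other classes. The AU-rich pentamer ATTTA occurred 1.87 times per kilobase of long non-coding sequence, against 1.76 and 1.55 in the 2 shorter classes, and the Pumilio motif TGTANATA 0.252 times, against 0.257 and 0.273. The share of A and T was 57.1%, 55.6% and 54.1%.

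To show the signal that closes the distal form, the last 30 transcribed bases of 11 regions described below follow, read from GENCODE transcripts 5′ to 3′ on the transcript's strand. Capitals mark the AATAAA or ATTAAA nearest the end, and coordinates are GRCm38.
Usp9x (chrX:13173298-13173327, plus strand): catatacaaaAATAAAactttataaattaa
Tfrc (chr16:32632765-32632794, plus strand): tgacttAATAAAatacttcgataatactga
Cracr2a (chr6:127674205-127674234, plus strand): aaaaagttAATAAAatatttattttaaaag
Eif4g2 (chr7:111067985-111068014, minus strand): ccataagccaaAATAAActcttgaacattg
Slc35a3 (chr3:116669470-116669499, minus strand): tttgaAATAAAatacttctttgctgctggc
Ddx17 (chr15:79527739-79527768, minus strand): ttttgtaggtataAATAAAtacttgacaat
Tulp4 (chr17:6240599-6240628, plus strand): ttgcttAATAAAattttgcagatcaaaaaa
Lpp (chr16:24992549-24992578, plus strand): aaaatccAATAAActtctcattccacttaa
Sbno1 (chr5:124368702-124368731, minus strand): cttaaataaaATTAAAcaaatgcactttga
Tnks (chr8:34829179-34829208, minus strand): tttcccagagaccccacagtgccactttac
Myadm (chr7:3299320-3299349, plus strand): aaacaaaaaaaaccctcaatataatgataa
In 9 of them the 30 bases hold a hexamer, and those of Tnks and Myadm hold neither form.

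The proximal site, in contrast, is predicted by DaPars from a drop in coverage, and the predictions lay toward the start of the region. No long region had a site fewer than 201 bases from its start, and none past 72.0% of the span. Shorter regions had the same lowest distance of 201 bases and reached 72.0 to 72.1% of the span. These bounds are therefore not particular to long regions. The site stood at exactly 201 bases in 203 long regions of the AbsPro table (19.7%), 188 of the SecPDG table (21.1%), 155 of the tuft table (22.2%), 134 of the enterocyte table (25.9%) and 72 of the EEC table (27.0%). Its median distance from the start was 396 to 502 bases, or 11.4 to 14.5% of the span. Of the matched regions, 20.2 to 28.2% had the site inside the coding part. Of the 140 to 574 sites per table in non-coding sequence, 4.29 to 6.6% had a hexamer in the preceding 50 bases, beside the 5.08% of windows elsewhere. Within 100 bases to either side a hexamer was found for 20.9 to 27.7%, against 19.0 to 19.8% of 200-base windows. Most predicted proximal sites in long regions had no hexamer beside them.

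**Figure D1:**
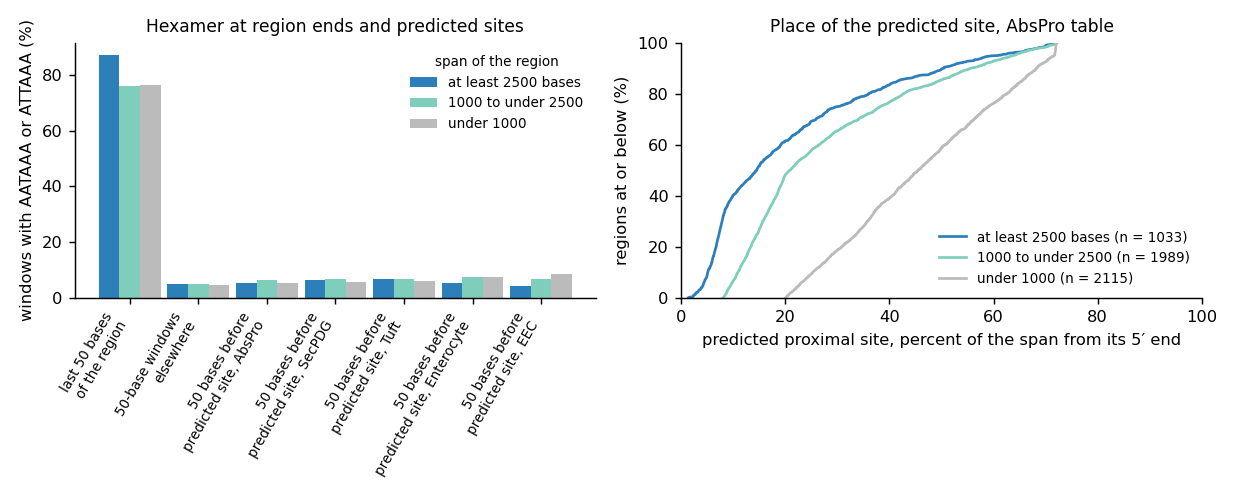
Left, the share of 50-base windows holding AATAAA or ATTAAA (%, bars) at the end of the region, elsewhere in its non-coding part and just before the predicted proximal site in each table, for 3 classes of span. Right, cumulative share of regions (%) by the place of the predicted site as a percent of the span in the AbsPro table. The long regions stand at 87.2% at their ends and between 4.29 and 6.6% before the predicted site, and no curve passes 72.1% of the span.

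The site was predicted anew in each table, so a transcript's stem value can differ between tables. In 58 of the 156 long regions listed in every table the site was identical, and all 174 of their stem values were then equal across tables. Where it was not, values could differ. Hspa1a had a mean stem value of 0.423 with the site 1536 bases from the start in the AbsPro table and of 0.0867 with the site at 1992 bases in the enterocyte table. Values are therefore compared within a table unless the site is the same.

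The measurement is the percentage of distal polyadenylation site usage index (PDUI), here the distal share, a fraction from 0 to 1 rounded to 2 decimals. It is the coverage assigned to the long form over the coverage of the long and the short form together. In the stem libraries the long form, as split at the predicted site, held the smaller part of the coverage in most long regions. The median of the mean stem share over 981 tested long regions of the AbsPro table was 0.31, against 0.357 over all 4976 regions. It was 0.327 for spans under 3500 bases, 0.313 from 3500 to under 5000 and 0.28 from 5000 bases on, and 0.403 for regions under 1000 bases. The upper quartile for long regions with spans under 3500 bases was 0.512, so the long form held the larger part in some. The 195 long regions with the site at 201 bases had a median of 0.253, and the other 786 one of 0.327. Long regions with at least 2500 non-coding bases stood at 0.3 and those with fewer at 0.39. Across the 981 regions Spearman's correlation coefficient between the mean stem share and the span was -0.0711, and with the place of the site in the span it was 0.189. These are descriptions across regions that share libraries and a prediction, and regions are not replicates.

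Just inside the limit of 2500 bases, Nipbl, which loads cohesin, had a span of 2501 bases and mean shares of 0.23 in Stem and 0.117 in AbsPro, and Epb41, a membrane skeleton gene, had 2504, with 0.53 and 0.373. Just outside it, the endocytosis gene Eps15 had 2497 bases and 0.353 in both groups, and the 2 transcripts of Ece1, endothelin-converting enzyme, had 2498 and 2499 bases with 0.6 and 0.65.

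By library, the median share of the long regions was 0.27, 0.3 and 0.315 in the Stem columns of the AbsPro table and 0.3, 0.26 and 0.33 in AbsPro. It was 0.25, 0.32, 0.3 and 0.31 in SecPDG and 0.27, 0.325, 0.32, 0.33 and 0.31 in tuft cells. These groups overlapped with Stem. The enterocyte columns stood at 0.27, 0.28, 0.215, 0.28 and 0.22, against 0.25, 0.28 and 0.29 for Stem in that table. The EEC columns stood at 0.09 and 0.2, both below the 0.23, 0.26 and 0.26 of Stem in theirs. The share of exact zeros over all regions differed between columns. It was highest in each group for Stem column 1 (4.33 to 6.02%), AbsPro column 2 (5.64%), SecPDG column 1 (9.24%), tuft column 1 (7.48%), enterocyte column 3 (1.09%) and EEC column 1 (15.3%), and EEC column 2 had 7.27%. EEC column 1 also lacked a value for 139 of the 267 long regions. The columns carry numbers only and are not tied to libraries of the gene counts.

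**Figure D2:**
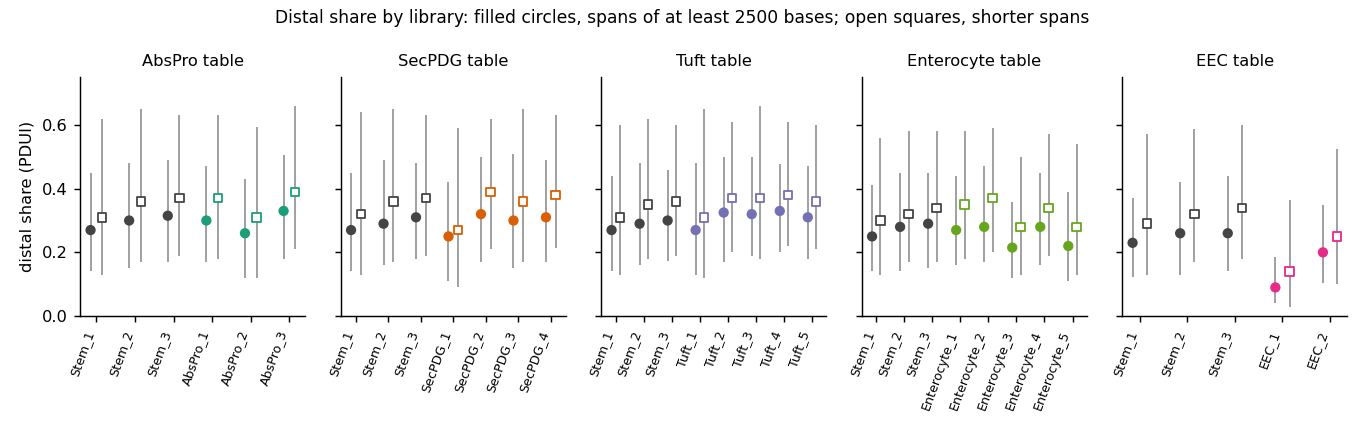
Median distal share (circles, long regions; squares, shorter regions; bars, the middle 50% of regions) of each library column in the 5 tables. Long regions lie below shorter ones in every column, and the 2 EEC columns, at 0.09 and 0.2, are the lowest among the long regions.

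Whether the stem cells' distal shares differ from those of another cell type was tested with limma on the log2 ratio of distal share to its complement, with a pseudocount of 0.01, over all regions of a table with at least 2 values in each group. A region counted as called below 0.05 after Benjamini-Hochberg adjustment. No long region was called in any of the 5 comparisons. Over all regions, 1 was called lower in SecPDG (0.0237%), 1 higher and 1 lower in tuft cells (0.0307% each) and 1 higher among enterocytes (0.0408%), while the AbsPro and EEC tables had 0. The 5 comparisons share the same 3 stem libraries, so their values are not independent of each other. The absence of calls has to be read with the width of the intervals. The median 95% interval of a long region reached 1.49 to either side of its log2 ratio difference in AbsPro and 1.36 in SecPDG. For tuft cells it was 1.26, for enterocytes 0.995 and for EECs 1.96. These intervals are not adjusted for the number of regions tested, as the calls are. Differences larger than these in a single region could therefore be missed, and some described below were.

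In AbsPro, the first step of the absorptive lineage, 981 long regions were tested and their median difference from Stem was 0. At an unadjusted p under 0.05 there were 33 (3.36%, against 3.94% of all regions), 16 of them higher (2.29% of all regions) and 17 lower (1.65% of all regions). The libraries did not overlap for 44 regions that were higher (4.9% of all regions) and 47 that were lower (3.76% of all regions). A mean difference of at least 0.15 was found in 143 (14.6%, against 21.5% of all regions). The smallest adjusted p of a long region was 0.589, for Myadm, a membrane protein of myeloid differentiation, with 0.63, 0.9 and 0.82 in Stem and 1 in all 3 AbsPro libraries. Its log2 ratio differed by 4.68 (SE 0.632, 95% interval 3.06 to 6.31), a value that depends on the pseudocount because the share reached its upper limit.

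Tfrc, the transferrin receptor that takes up iron, had shares of 0.43, 0.35 and 0.45 in Stem and 0.64, 0.59 and 0.6 in AbsPro. The groups did not overlap, the means differed by 0.2, and the adjusted p was 0.922. Nipbl stood at 0.23, 0.26 and 0.2 in Stem and at 0.11, 0.1 and 0.14 in AbsPro, also without overlap (adjusted p = 0.922). Limk2, a kinase that acts on the actin regulator cofilin, had 0.1, 0.08 and 0.14 in Stem and 0.22, 0.17 and 0.2 in AbsPro. The Mediator subunit gene Med9 had 0.11, 0.14 and 0.17 against 0.06, 0.02 and 0.05. Spata13, a guanine nucleotide exchange factor, had 0.4, 0.55 and 0.57 in Stem and 1 and 0.94 in the 2 AbsPro libraries with a value. All 3 had an adjusted p of 0.922. None of these 5 differences passed the test, though the libraries of each did not overlap.

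In SecPDG, 856 long regions were tested, with a median difference of 0. An unadjusted p under 0.05 was found for 32 (3.74%, against 4.85% of all regions), 13 higher (2.32% of all regions) and 19 lower (2.53% of all regions). The libraries did not overlap for 32 that were higher (3.53% of all regions) and 33 that were lower (3.17% of all regions). A difference of at least 0.15 was found for 110, or 12.9%, against 20.8% of all regions. The region nearest the threshold in any comparison was here. H13, which encodes the signal peptide peptidase of the endoplasmic reticulum, had shares of 0.14, 0.1 and 0.16 in Stem and of 0.03, 0.02, 0.03 and 0.03 in SecPDG. Its log2 ratio was lower by -2.09 (SE 0.268, 95% interval -2.74 to -1.43), with an unadjusted p of 0.000236 and an adjusted p of 0.112. H13 had 2 long regions. The region described here matched no GENCODE terminal exon, so its coding part is not known.

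Cracr2a, a calcium sensor of store-operated calcium entry, had 0.2, 0.32 and 0.3 in Stem and 0.42, 0.53, 0.56 and 0.52 in SecPDG, a mean difference of 0.234 (adjusted p = 0.756). Alg11, a mannosyltransferase of N-glycan assembly, had 0.56, 0.54 and 0.64 against 0.35, 0.43, 0.35 and 0.38. Eif4g2, a translation initiation factor, had 0.22, 0.19 and 0.2 against 0.11, 0.11, 0.13 and 0.13. Their adjusted p were 0.681 and 0.79. Trappc10, a subunit of a vesicle tethering complex, had 0.07, 0.05 and 0.06 in Stem and 0.18, 0.15, 0.22 and 0.09 in SecPDG (adjusted p = 0.847). In all 4 the groups did not overlap, and none passed the test. The zinc finger gene Zfp553 had 0.34, 0.88 and 0.58 in Stem and 1 in both SecPDG libraries with a value (adjusted p = 0.847). When the column richest in zeros was left out of each group, a choice made after seeing the data, 1 long region was called, that of the phospholipid flippase gene Atp10b (log2 ratio higher by 3.61, adjusted p = 0.0254). The share over all regions was not counted in that fit.

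In tuft cells, 680 long regions were tested. The median difference was 0.0157, against 0.0125 over all regions, and 419 means were higher than in Stem and 256 lower. There were 28 with an unadjusted p under 0.05 (4.12%, against 5.19% of all regions), 19 higher (3.41% of all regions) and 9 lower (1.78% of all regions). Without overlap, 24 were higher (3.75% of all regions) and 7 lower (1.29% of all regions), and 79 (11.6%) differed by at least 0.15, against 18.2% of all regions. Usp9x, an X-linked deubiquitinase, had 0.2, 0.25 and 0.29 in Stem and 0.53, 0.46, 0.38, 0.41 and 0.42 in tuft cells, with a mean difference of 0.193 (adjusted p = 0.685). Sbno1, a helicase-like protein, had 0.08, 0.14 and 0.17 against 0.24, 0.23, 0.29, 0.25 and 0.23. The poly(ADP-ribose) polymerase gene Tnks, a regulator of Axin in the Wnt pathway, had 0.14, 0.27 and 0.24 in Stem and 0.56, 0.45, 0.48 and 0.38 in the 4 tuft libraries with a value. Both had an adjusted p of 0.854 and no overlap between groups. Slc35a3, a Golgi transporter of UDP-N-acetylglucosamine, varied little within tuft cells, with 0.3, 0.3, 0.31, 0.3 and 0.3 against 0.19, 0.23 and 0.21 in Stem (adjusted p = 0.854). Of the lower ones, Alad, of heme synthesis, had 0.59, 0.16 and 0.34 in Stem and 0.08, 0.15, 0.06, 0.14 and 0.13 in tuft cells. Cenpb, a centromere protein, had 0.72, 0.96 and 0.91 against 0.48, 0.67, 0.73, 0.68 and 0.67, which overlapped slightly (adjusted p = 0.854 for both).

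In enterocytes, 486 long regions were tested, with a median difference of 0. An unadjusted p under 0.05 was found for 37 (7.61%, against 8.53% of all regions), 20 higher (4.9% of all regions) and 17 lower (3.63% of all regions). Without overlap, 20 were higher (4.41% of all regions) and 18 lower (3.23% of all regions). A difference of at least 0.15 was found for 35 (7.2%, against 14.9% of all regions). Usp9x had 0.34, 0.36, 0.36, 0.4 and 0.44 in enterocytes, all above its 3 stem values (mean difference 0.133, adjusted p = 0.426). Nipbl had 0.1, 0.15, 0.08, 0.16 and 0.09, all below its stem values (mean difference -0.114, adjusted p = 0.426). Ddx17, an RNA helicase, had 0.75, 0.64 and 0.7 in Stem and 0.63, 0.47, 0.52, 0.49 and 0.56 in enterocytes (adjusted p = 0.475). Ahcyl2, a homolog of adenosylhomocysteinase that binds IP3 receptors, had 1, 0.96 and 0.89 against 0.9, 0.81, 0.55, 0.73 and 0.64, with 1 enterocyte value above the lowest of Stem. The smallest adjusted p, 0.307, was that of Hspa1a, with 0.09, 0.07 and 0.1 in Stem and 0.16, 0.19, 0.16, 0.15 and 0.15 in enterocytes. The exocyst gene Exoc1 had 0, 0.01 and 0.01 in Stem and 0.07, 0.04 and 0.06 in the 3 enterocyte libraries with a value (adjusted p = 0.348).

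In EECs, 124 of the 267 long regions could be tested. Their median difference was -0.0583, against -0.0533 over all regions. Both EEC libraries stood below all stem libraries in 40 regions and above them in 4, where 27.6% and 4.63% of all regions did so. At an unadjusted p under 0.05 there were 9 (7.26%, against 13.7% of all regions), 0 higher (1.09% of all regions) and 9 lower (12.7% of all regions), and 33 (26.6%) differed by at least 0.15, against 33.9% of all regions. Tulp4, a tubby-like protein, had 0.28, 0.41 and 0.4 in Stem and 0.09 and 0.1 in EECs (mean difference -0.268, adjusted p = 0.186). Myadm had 0.66, 0.85 and 0.88 in Stem and 0.07 and 0.2 in EECs (adjusted p = 0.186). Daam1, a formin of Wnt planar polarity signaling, had 0.3 and 0.28 in the 2 stem libraries with a value and 0.06 and 0.09 in EECs (adjusted p = 0.258).

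The EEC differences depended on the library kept. With EEC column 1 alone, log2 ratios differed from Stem by -1.34 for Slc35a3, -2.5 for Daam1, -3.34 for Nipbl and -1.15 for Lpp. They differed by 7.93 for Errfi1, 8.45 for Neat1 and 4.58 for Letm1. With EEC column 2 alone, they differed by -4.36 for Fam76b, -5.46 for Fam83h, 8.24 for Usp9x and 8.51 for Tnks. Some long regions were called in these fits, mostly lower ones with column 1 alone, but the share over all regions was not counted. The lone library is then assumed to vary as the stem libraries do. The 2 EEC libraries often disagreed. Usp9x stood at 0.14 and 1 in them, and Letm1, a mitochondrial ion transport gene at 0.01 in every stem library, stood at 0.32 and 0.02. H13 stood at 0.2 and 0.39, above its 3 stem values (mean difference 0.162, adjusted p = 0.398). Errfi1, an inhibitor of the EGF receptor, stood at 1 and 0.59 against 0.31, 0.2 and 0.37 (adjusted p = 0.398).

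**Figure D3:**
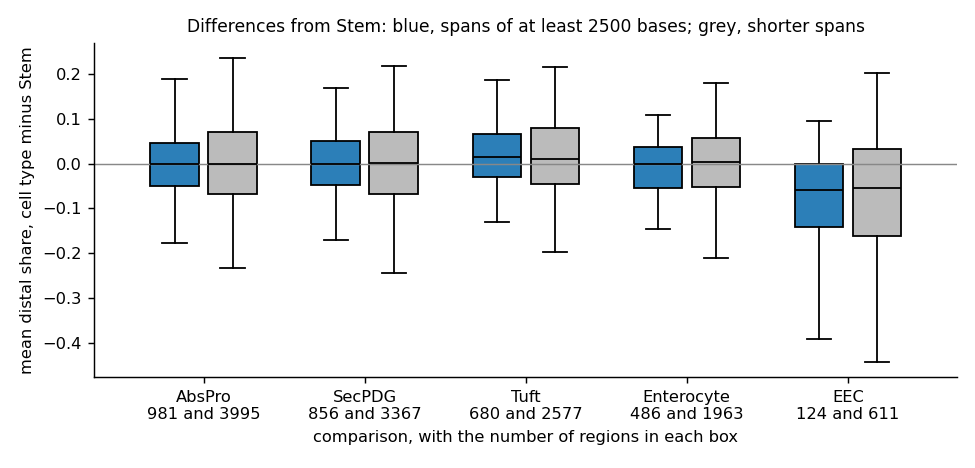
Mean distal share in each cell type minus that in Stem for long (blue) and shorter (grey) regions. Boxes span the middle 50% of regions with the median as a line, and whiskers the central 90%. Long regions have a median difference of 0 in AbsPro, SecPDG and enterocytes, 0.0157 in tuft cells and -0.0583 in EECs, and their boxes are narrower than those of shorter regions in every comparison.

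**Figure D4:**
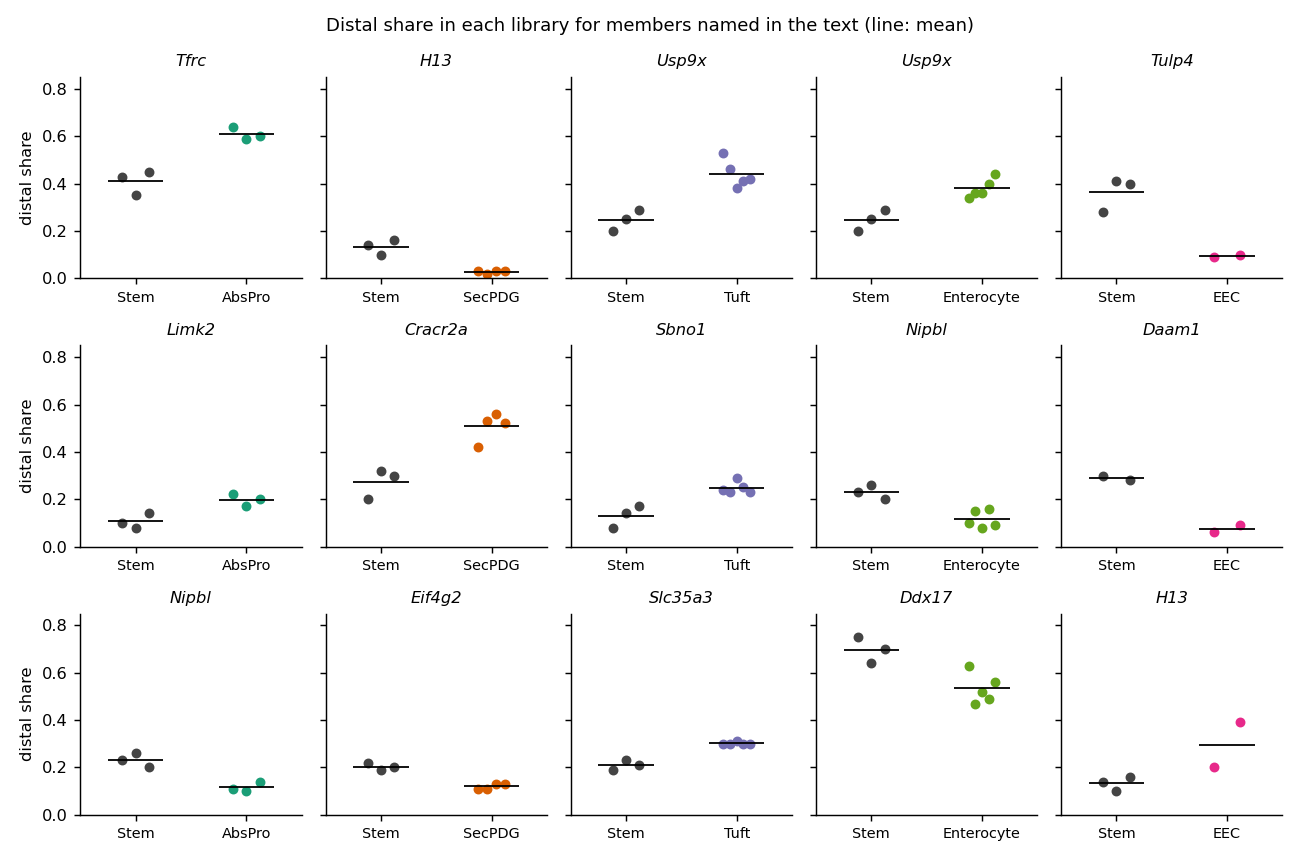
Distal share of single libraries (points) and group means (lines) for 15 pairs of a long region and a comparison. Stem and the cell type do not overlap in the panels shown for Tfrc, H13 and Usp9x, while no panel shows a difference that passed the adjusted test.

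The 58 long regions with the same site in every table allow their values to be set side by side over the 22 libraries. Their median over regions of the mean share was 0.217 in Stem, 0.21 in AbsPro and 0.194 in SecPDG. Tuft cells had 0.241, enterocytes 0.179 and EECs 0.14. Within a region the highest and lowest library differed by a median of 0.285, or 0.27 without EECs. The lowest library was EEC column 1 in 21 of the 36 regions with a value there. In 16 regions the share was under 0.25 in every library, and in 1, Eppk1, it was over 0.5 in every library (0.83 to 1).

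Of the 16 regions under 0.25 in every library, the following examples were chosen after their values were seen. The ribosomal protein gene Rps20 ranged from 0 to 0.07, Dad1, a subunit of the oligosaccharyltransferase, from 0 to 0.09, and Mrpl35, a mitochondrial ribosomal protein, from 0 to 0.14. Camk2n1, an inhibitor of CaM kinase II, varied least, from 0.01 to 0.05. Sec63 and Erp44, of the endoplasmic reticulum, ranged from 0.01 to 0.1 and from 0 to 0.08. At the other end, the transcription factor gene Hnf4a of the intestinal epithelium ranged from 0.4 to 0.69 and Slc25a51, the mitochondrial NAD carrier, from 0.29 to 0.94. Lpp, a focal adhesion gene whose span of 13385 bases was the longest of those listed in every table, ranged from 0.13 to 0.42 with means of 0.257 in Stem, 0.29 in AbsPro and 0.23 in SecPDG. Tuft cells had a mean of 0.234, enterocytes one of 0.282 and EECs one of 0.155. Zfp292, a zinc finger gene with a span of 8933 bases of which 7080 were coding, had 0.81, 0.36 and 0.31 in Stem and reached 1 in a tuft and an EEC library.

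Slc35a3 was among these 58. Its shares were 0.19, 0.23 and 0.21 in Stem, 0.24, 0.26 and 0.26 in AbsPro, and 0.38, 0.32, 0.26 and 0.34 in SecPDG. With the tuft values of 0.3 to 0.31, every library of these 3 cell types stood above every stem library. Enterocytes, at 0.17, 0.23, 0.12, 0.22 and 0.17, overlapped with Stem, and both EEC libraries, at 0.09 and 0.18, stood below it. No difference passed the test (adjusted p = 0.922, 0.847, 0.854, 0.746 and 0.484 in the order AbsPro, SecPDG, tuft, enterocyte and EEC). H13 had a different order, with 0.1, 0.04 and 0.1 in AbsPro, 0.05, 0.06, 0.06, 0.08 and 0.03 in tuft cells and 0.13, 0.12, 0.15, 0.09 and 0.11 in enterocytes. Its SecPDG and tuft libraries stood below Stem and its EEC libraries above.

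Long regions of 12 gene lists were also counted, and none of the lists had a call in any comparison. RNA binding and decay genes, with 32 regions tested in AbsPro, 31 in SecPDG, 27 in tuft cells and 22 in enterocytes, had 2 higher and 2 lower with an unadjusted p under 0.05 in SecPDG, where all regions gave 2.32% and 2.53%. There were 1 higher and 1 lower for tuft cells and none in AbsPro or enterocytes. Their median differences were 0.00333, 0.0175, 0.024 and 0.00433. Transcription factors, with 47, 44, 37 and 23 regions, had none with an unadjusted p under 0.05 in AbsPro and SecPDG, 1 lower in tuft cells (1.78% of all regions) and 3 lower in enterocytes (3.63% of all regions). Clock, the circadian regulator, was 1 of these 3, with 0.29, 0.36 and 0.35 in Stem and 0.23, 0.26, 0.2, 0.29 and 0.26 in enterocytes (adjusted p = 0.547). Ubiquitin and SUMO genes had at that level 2 higher among 27 in AbsPro, 1 among 27 in SecPDG, 2 among 22 for tuft cells and 1 among 7 for enterocytes, beside 2.29%, 2.32%, 3.41% and 4.9% of all regions. None of them was lower at that level, beside 1.65%, 2.53%, 1.78%, 3.63% and, in EECs, 12.7% of all regions. None of the 4 in EECs was higher (1.09% of all regions). Libraries did not overlap for 2 higher and 2 lower in AbsPro (4.9% and 3.76% of all regions). In SecPDG this held for 3 and 1 (3.53% and 3.17% of all regions), and for 1 and 0 in tuft cells (3.75% and 1.29%) and in enterocytes (4.41% and 3.23%). Wnt pathway genes had median differences of -0.00333 over 12 regions in AbsPro, 0.025 over 13 in SecPDG, 0.0773 over 9 for tuft cells and 0.00467 over 7 for enterocytes, and the single region in EECs differed by -0.215. An unadjusted p under 0.05 was found for 1 higher in AbsPro, 1 higher in tuft cells and the 1 lower in EECs. The chromatin regulator Kat6a, an acetyltransferase, had 0.28, 0.26 and 0.27 in Stem and 0.24, 0.22, 0.12, 0.19 and 0.15 in enterocytes (adjusted p = 0.563). Mib1, a ubiquitin ligase that activates Notch ligands, had 0.52, 0.33 and 0.44 in Stem and 0.35, 0.29, 0.27 and 0.23 in the 4 enterocyte libraries with a value (adjusted p = 0.563).

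The mRNA level of the genes with a long region was tested from the gene counts with edgeR's quasi-likelihood test in 1 fit of the 22 libraries, and calls required an adjusted p below 0.01 with 50 or more normalized counts on average. Of the 1108 genes, 1076 were in the counts and 1066 had that mean. In AbsPro 4 were higher and 2 lower (0.857% and 0.159% of all genes), and in SecPDG 47 and 30 (5.84% and 2.76% of all genes). In tuft cells 39 were higher and 65 lower (13.5% and 7.31% of all genes). In enterocytes there were 21 and 292 (18.5% and 19.8% of all genes), and in EECs 22 and 204 (18.6% and 15.8% of all genes). Of genes with shorter regions alone, 3.54% were higher and 13.1% lower in tuft cells. The shares were 2.75% and 33.4% in enterocytes and 1.94% and 29% in EECs. Genes with a scored region of any length needed coverage in Stem, so genes low in Stem, which all genes include, are left out of both sets. The split depended on the scaling. With DESeq2's size factors the counts of higher and lower genes were 123 and 83 (tuft), 127 and 188 (enterocyte) and 111 and 146 (EEC), with 110 and 58 in SecPDG and 9 and 7 in AbsPro. With library totals alone they were 87 and 124, 104 and 214, and 60 and 234, with 69 and 123 in SecPDG and 8 and 9 in AbsPro. The shares of all genes called were not counted under these scalings. Their median moved as well, from -0.299 to 0.348 in enterocytes with size factors. The genes called lower under all 3 scalings numbered 61 for tuft, 187 for enterocyte and 143 for EEC. In EECs the counts also depended on which of the 2 EEC libraries was left out.

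The median log2 fold change of the genes with a long region was -0.207 for tuft cells, -0.604 for enterocytes and -0.64 for EECs, against -0.0864, -0.299 and -0.305 over all genes. Size factors shifted the median over all genes to 0.204, 0.348 and 0.479 and that of the long-region genes to -0.00767, -0.0782 and -0.0472. Relative to all genes, the median of the long-region genes was lower under each of the 3 scalings, by -0.12 to -0.212 for tuft cells, by -0.304 to -0.427 for enterocytes and by -0.336 to -0.526 for EECs. Genes with shorter regions alone were lower still, and the long-region genes stood above them by 0.0679 to 0.0836 in enterocytes and 0.224 to 0.248 in EECs. Both sets hold only genes whose ends had enough coverage to be scored in Stem and in another cell type. Coverage in Stem was required of every gene, but coverage in any 1 of the other cell types sufficed. The difference from all genes cannot be told apart from this selection. These genes are not independent replicates, and the medians are descriptions.

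**Figure D5:**
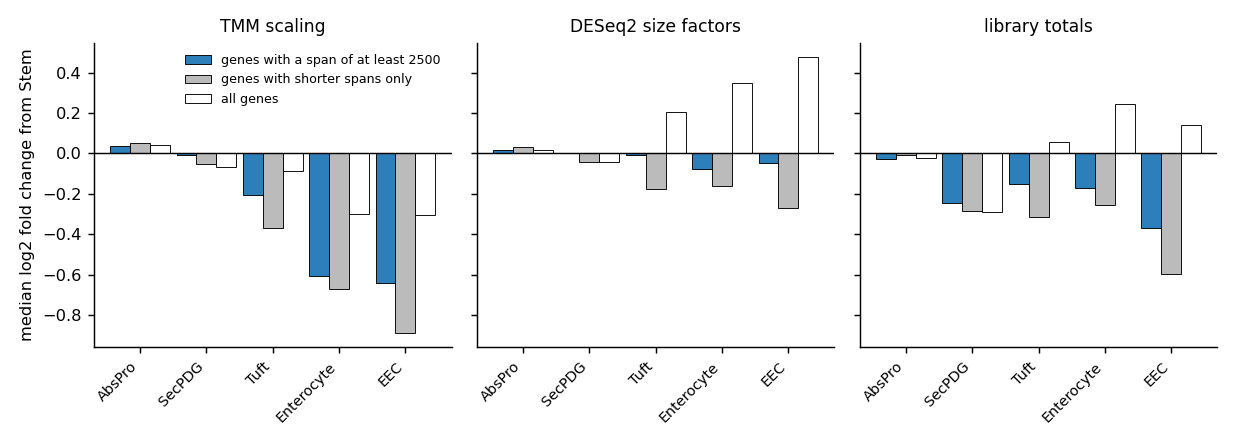
Median log2 fold change of mRNA from Stem for genes with a long region (blue), genes with shorter regions alone (grey) and all genes (white) under 3 scalings. Under TMM scaling the long-region genes stand at -0.604 in enterocytes and -0.64 in EECs, and under each scaling they lie between the shorter-region genes and all genes in tuft cells, enterocytes and EECs.

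Some genes whose distal shares are given above also differed in mRNA level, and the directions that follow were the same under all 3 scalings. Cracr2a mRNA was higher in SecPDG (log2 fold change 2.52, adjusted p = 1.93e-06) and in tuft cells (2.09, adjusted p = 2.58e-05). Tulp4 mRNA was higher in SecPDG (1.36, adjusted p = 0.00335) and tuft cells (1.46, adjusted p = 0.000609), as was Myadm mRNA (1.88, adjusted p = 0.000113, and 1.53, adjusted p = 0.000776). Higher too were Eppk1 mRNA in tuft cells (2.26, adjusted p = 3.91e-05) and Errfi1 mRNA in enterocytes (1.41, adjusted p = 0.00026) and EECs (2.04, adjusted p = 1.13e-05). Tfrc mRNA was lower in EECs (-2.34, adjusted p = 5.33e-05), as were Limk2 (-2.26, adjusted p = 3.98e-05) and Slc35a3 (-2.01, adjusted p = 0.000937). Tfrc was also lower in tuft cells (-1.1, adjusted p = 0.00775) and Limk2 in enterocytes (-1.25, adjusted p = 0.000708). H13, Usp9x, Nipbl and Sbno1 passed in no comparison under TMM scaling, with log2 fold changes from -0.76 to 0.87. H13 stood at 0.87 in SecPDG (adjusted p = 0.102) and 0.45 in tuft cells (adjusted p = 0.246), and both were called higher with size factors but not with library totals.

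The proteins that cut and polyadenylate the RNA were followed as a list of 26 genes, 25 of which reached that mean. None was higher in any comparison. Lower calls numbered 0 in AbsPro and SecPDG, 1 for tuft cells, 14 for enterocytes and 7 for EECs, of 25 genes, beside 0.159%, 2.76%, 7.31%, 19.8% and 15.8% of all genes. With size factors they were 2, 9 and 5 in the last 3, and with library totals 3, 10 and 10, with 3 more in SecPDG. The shares of all genes were not counted under these 2 scalings. Cstf2, the CstF subunit that binds the downstream element and is often linked to proximal site use, was lower in enterocytes (-1.85, adjusted p = 1.77e-06) and EECs (-2.56, adjusted p = 4.56e-06). Cpsf1, the largest subunit of the factor that recognizes the hexamer, was lower in both (-1.87 and -2.14) and in tuft cells (-1.16). The list overlaps the long regions in 2 genes. Cpsf6 had 2 long regions, and the region described here matched no GENCODE terminal exon. Cpsf6, a subunit of the factor that favors distal sites, had shares of 0.27, 0.28 and 0.35 in Stem and 0.48, 0.21 and 0.22 in AbsPro, and its mRNA was lower in enterocytes (-1.34, adjusted p = 0.000539) and in EECs (-1.4, adjusted p = 0.00633), the latter not called with size factors. The other was the phosphatase gene Ppp1cb, which passed neither test.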

How the data were processed

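RNA was sequenced from 22 libraries of 6 sorted mouse colon cell types. Per the submitters' processing notes and the study's methods, the authors aligned reads with STAR 2.5.2a to mm10 and deposited HTSeq 0.6.1p1 gene counts made without strand, and the notes also name SAMtools 1.3, FastQC 0.11.7, DESeq2 1.16.1, bedtools 2.25.0 and, separately, R 3.4.1. The authors ran DaPars on Stem against 1 cell type at a time, with a coverage minimum. The deposited tables give the distal share, a fraction rounded to 2 decimals. They also hold 68 columns of long and short form coverage, which were not used. Columns of the authors' own comparisons (differences, p-values) and the splicing tables were left out.

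Gene counts were 4122122 to 22462518 per library, and rows that name no gene, left out, held 53.9 to 91.6% of each table's counts. The coverage behind each share was not used here, so no counting interval is given, and precision rests on 2 to 5 libraries per group. The members and gene lists were chosen with earlier results of these data known.

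Distal shares were tested per table with limma 3.58.1 (R 4.3.3) on log2((share + 0.01)/(1 - share + 0.01)), with at least 2 values per group and Benjamini-Hochberg adjustment over all regions of the table (adjusted p under 0.05). Gene counts were fitted with edgeR 4.0.16 (TMM, quasi-likelihood) over all libraries, and calls needed an adjusted p under 0.01 and a mean of 50. Both scripts were tested on simulated data. The genes named were, per comparison and direction, the 3 passing members with the largest change of mean share whose groups did not overlap, filled from the smallest adjusted p where fewer than 3 passed, which was so everywhere, and also the 3 longest spans listed in all 5 tables, the genes Top2a, Wdhd1, Cby1, Rbm3 and Ihh where they were members, which none was, and up to 3 members per list with the smallest adjusted p. The members singled out for the same site in every table, for an alternative or for being just inside or outside 2500 bases were chosen after their values were seen. A few genes that these rules name are not reported here. Tables and plots used matplotlib 3.10.9, scipy 1.17.1, numpy 2.4.6 and pandas 2.3.3 under Python 3.11.15. Alternatives were other pseudocounts, filters, thresholds and scalings, DESeq2 1.42.0, a replicate block and leaving out each library.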

Additional observations from a re-analysis of the deposited data

Results flagged for a closer look

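Among the genes named, 127 groups of 4 or 5 libraries were searched for a library far from the others, and 16 were found, where chance gives about 1 in 20 groups. In tuft cells 1 library held a share of 1 for Arid1a (others 0.35 to 0.5), Ccng1 (0.34 to 0.4), Usp22 (0.22 to 0.29) and Zfp292 (0.34 to 0.39). Single high tuft values were also 0.46 for Kat6a (others 0.19 to 0.26) and 0.31 for Slc35a3 (others 0.3). Single low ones were 0.48 for Cenpb (others 0.67 to 0.73), 0.02 for Limk2 (others 0.21 to 0.27) and 0.02 for Med9 (others 0.13 to 0.16). In SecPDG a library stood high at 0.36 for Tbl1xr1 (others 0.18). One stood low at 0.01 for Cdk13 (others 0.14 to 0.15), at 0.02 for Eif4e (others 0.06) and at 0.02 for H13 (others 0.03). In enterocytes the single high values were 0.21 for Eif4g2 (others 0.14 to 0.15), 0.19 for Hspa1a (others 0.15 to 0.16) and 0.1 for Letm1 (others 0.02 to 0.04). The gaps for Slc35a3 and H13 equal the rounding step of the deposited shares.

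In 3 genes whose predicted proximal sites lay within 50 bases of each other in the tables compared, every library of a cell type lay above all stem libraries while every library of another lay below them, and the difference between the cell types was not tested. H13 had a mean difference from Stem of 0.162 in EECs, against -0.106 in SecPDG and -0.0773 in tuft cells. Daam1 differed by 0.163 in tuft cells and by -0.215 in EECs. Slc35a3 differed by 0.0433 in AbsPro, 0.115 in SecPDG and 0.092 in tuft cells, and by -0.075 in EECs. These comparisons share the stem libraries, and EECs have 2 libraries only.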

How the results depend on the processing

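In 153 combinations of a comparison, a direction and an alternative no long region was called, as reported, and in 5 at least 1 was. The alternatives were a pseudocount of 0.05, a test of the share itself, a value in every library, a difference of at least 0.15, an adjusted p under 0.01, 1 transcript per region, a replicate block and each library left out. Those added after seeing the data were library weights and leaving out the column richest in zeros, which gave 1 higher region in SecPDG. Leaving out 1 library gave 0 to 3 higher and 0 to 29 lower regions in EECs, the highest without EEC column 2, and 2 and 2 without EEC column 1.

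The mRNA counts (higher and lower) moved in 45 combinations and held in 93. With DESeq2's size factors they were 9 and 7 in AbsPro, 110 and 58 in SecPDG, 123 higher in tuft cells, 127 and 188 in enterocytes and 111 higher in EECs. With library totals they were 8 and 9 in AbsPro, 123 lower in SecPDG, 87 and 124 in tuft cells, 104 higher in enterocytes and 60 higher in EECs. DESeq2's Wald test gave 12 and 13 in AbsPro, 123 and 61 in SecPDG, 149 higher in tuft cells, 130 and 191 in enterocytes and 120 higher in EECs. The older form of edgeR's fit, added after seeing the data, gave 0 higher in AbsPro, 12 lower in SecPDG, 37 lower in tuft cells and 10 higher in enterocytes. The shares of all genes called under these alternatives were not counted, and the cause of these shifts was not tested.

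With 1 library left out the counts ran from 0 to 3 higher and 2 to 2 lower in AbsPro, 28 to 47 and 11 to 28 in SecPDG, 27 to 50 and 43 to 85 in tuft cells, 10 to 21 and 204 to 391 in enterocytes and 4 to 51 and 154 to 512 in EECs. Counts moved by over 1.5 times without any Stem library, AbsPro 1 or AbsPro 3 (AbsPro higher, 0 to 2), without Stem 1 (SecPDG, 28 and 18), without SecPDG 1, 2 or 3 (11, 17 and 17 lower), without Tuft 2 (43 lower) and without Stem 1, 2 or 3 (enterocytes, 11, 10 and 10 higher). In EECs they moved without EEC 1 (higher) and without EEC 2 (higher and lower).

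Replicate numbers gave no sign of pairing in the gene counts, where same-numbered deviations correlated at -0.0996 to 0.088. For distal shares the correlations were -0.112 to 0.109. The column numbers there name no library, so these values cannot show whether samples were paired. The replicate block left 0 long regions in every comparison and moved 1 count of mRNA calls by over 1.5 times, to 134 lower genes in tuft cells.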
